A study of Mus musculus with 8 samples.

Results

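Periportal sinusoidal endothelial cells line the upstream end of the liver's capillaries, next to the portal vein and hepatic artery. In single-cell RNA sequencing of sorted liver stromal cells from mice on 2 diets, these cells were taken as droplet barcodes that passed a sinusoidal gate, carried a periportal gene and carried no gene of the pericentral end or of a separate channel-gene state. The gate asked for at least 1 UMI (unique molecular identifier, 1 counted RNA molecule) of at least 2 of the 6 genes Stab2, Clec4g, Oit3, Gpr182, Fcgr2b and Dnase1l3, and for 0 UMIs of Vwf. Members then had 0 UMIs of the channel genes Esm1, Kcne3, Kcnj8 and Abcc9, 0 UMIs of the pericentral genes Wnt2, Wnt9b, Kit and Rspo3, and at least 1 UMI in the sum of Efnb2, Ntn4, Dll4 and Ly6c1. The rule found 217 periportal cells among 1261 gated sinusoidal cells (17.2%, 95% Wilson interval 15.2 to 19.4%) and 3192 barcodes kept in all. Members were thus chosen by the measured UMIs of 19 rule genes, so their levels are given as a description and were not tested.

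The livers came from male C57Bl/6 mice that were 6 to 8 weeks of age and then ate a chow control diet or the HFHC diet for 20 to 32 weeks; the study's design text calls this diet high in fat and cholesterol, and the sample titles call it high in fat and calories. Non-parenchymal cells were cleared of dead cells and sorted for stromal cells by CD31, CD146, PDPN and CD45 antibody staining, a step meant to enrich endothelium, and then captured by 10x Chromium. There were 4 control libraries and 4 HFHC libraries, each from 1 animal. Nothing in the labels names litters or sort days. P-values between the diets are set against the spread between these libraries. Those between cell sets, with the library as a block, are set against how much the difference within a library varied.

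Libraries differed greatly in how many periportal cells they held. Controls 1 to 4 gave 8 of 38, 10 of 67, 77 of 548 and 4 of 43 gated cells, and HFHC 1 to 4 gave 3 of 23, 0 of 3, 1 of 3 and 114 of 536. Control 3 and HFHC 4 therefore supplied 191 of the 217 cells, and gene tests used only the 3 libraries with at least 10 members, control 2, control 3 and HFHC 4. Members in these libraries held 24836, 120605 and 180731 UMIs, with medians of 2136, 1558 and 1596 UMIs per cell. Some barcodes occurred in more than 1 library: controls 1 and 2 and HFHC 1 to 3 shared 33 to 65 barcodes per pair, other pairs shared at most 4, and each barcode was kept where it had most UMIs. Sharing touched 7 members, 4 in control 1 and 3 in HFHC 1, and no member of the 3 libraries tested.

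Blood enters the sinusoid at its periportal end and leaves at the central vein, and both the endothelium and the hepatocytes change their gene expression along that path. The periportal end is known for arterial-type signals. Dll4 is a ligand of Notch receptors, whose cleaved intracellular part joins the DNA-binding protein RBPJ to switch on targets such as Hes1. Efnb2 is a membrane ligand of Eph receptors and a classical marker of arteries, Ntn4 is a netrin of the basement membrane, and Ly6c1 is a small lipid-anchored surface protein of capillaries. The pericentral end is known for Wnt2, Wnt9b and Rspo3, which maintain the hepatocyte programme around the central vein.

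Ntn4 was the most frequent entry into the periportal group. It was detected in 137 of the 217 cells (63.1%), Dll4 in 68 (31.3%), Efnb2 in 64 (29.5%) and Ly6c1 in 21 (9.68%). Most cells rested on sparse evidence: 157 carried 1 of the 4 genes, 47 carried 2, 13 carried 3 and 0 carried all 4, and 117 cells (53.9%) carried exactly 1 UMI in all. Ntn4 stood at 604, 522 and 625 CPM (UMIs of a gene scaled to a fixed total of the cell set) in control 2, control 3 and HFHC 4. Dll4 stood at 161, 224 and 232 CPM, and Efnb2 at 121, 182 and 271 CPM. Ly6c1 varied most among the 4, at 322, 82.9 and 160.5 CPM, and was found in 3 of 10, 3 of 77 and 13 of 114 members; counting of Ly6 genes is uncertain because the family's members resemble each other.

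**Figure D1:**
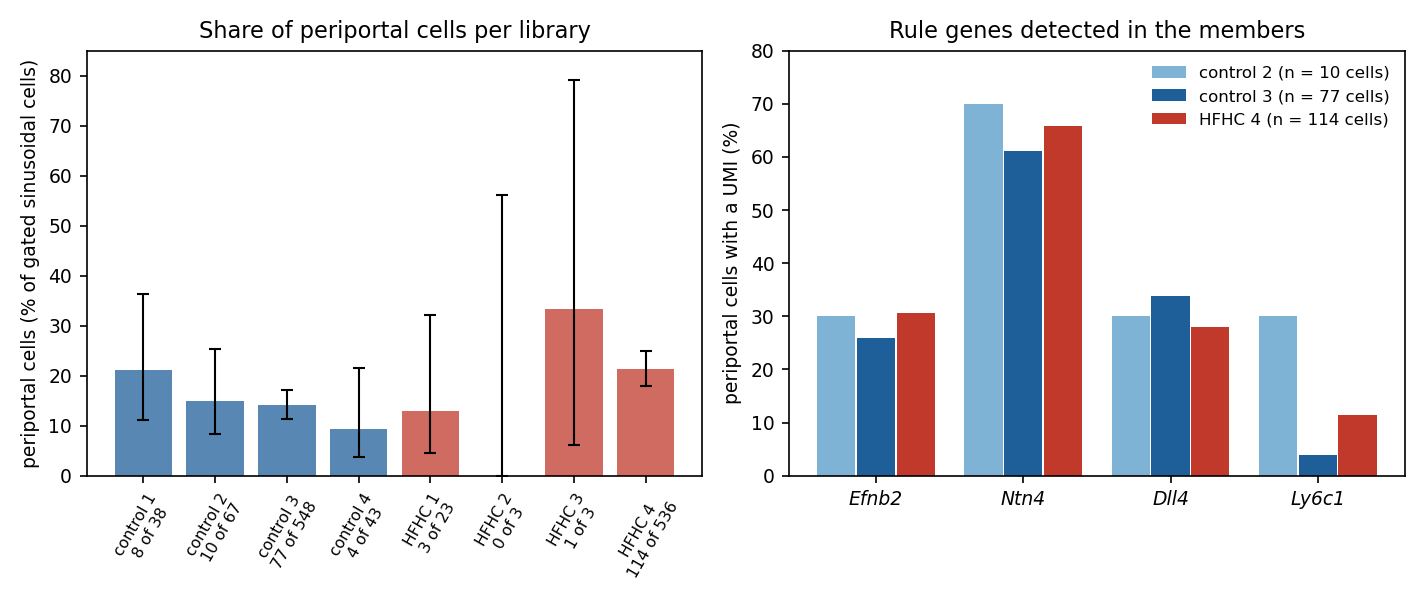
Left panel, percent of gated sinusoidal cells in each of the 8 libraries that were periportal members, with 95% Wilson intervals and the counts of members and gated cells; right panel, percent of members in control 2, control 3 and HFHC 4 with at least 1 UMI of each of the 4 periportal rule genes. The shares ran from 9.30% in control 4 to 21.3% in HFHC 4 among libraries with at least 10 gated cells, and Ntn4 was the most frequent rule gene in all 3 libraries of the right panel.

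Free RNA can place a UMI in a droplet whose cell does not express the gene. Among 133 kept barcodes outside the gate that carried the leukocyte gene Ptprc and none of the endothelial genes Pecam1, Cdh5 and Egfl7, 1 barcode (0.752%) had a UMI of Efnb2, Ntn4 or Dll4 and none had Ly6c1, at a median of 2307 UMIs. In all 1261 gated cells, at a median of 1599 UMIs, 417 (33.1%) had a UMI of Efnb2, Ntn4 or Dll4. Of these leukocyte barcodes 88 came from HFHC 3, 1 from HFHC 4 and 0 from control 3, so this background was hardly measured in the libraries that held most members.

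The promoters of the 2 B-class ephrins are shown because both ligands were higher in periportal than in pericentral cells, Efnb2 by the rule and Efnb1 by the test below, and that of Dll4 because it is the Notch ligand of the rule. Each is the 250 bases before the RefSeq start (GRCm38.p6), 5′ to 3′ on the gene's strand, with capitals at matches to TGGGAA or its reverse TTCCCA, the core letters that RBPJ binds. Efnb1 lies at chrX:99135811-99136060 (plus strand), Efnb2 at chr8:8661243-8661492 (minus strand) and Dll4 at chr2:119325534-119325783 (plus strand).
Efnb1: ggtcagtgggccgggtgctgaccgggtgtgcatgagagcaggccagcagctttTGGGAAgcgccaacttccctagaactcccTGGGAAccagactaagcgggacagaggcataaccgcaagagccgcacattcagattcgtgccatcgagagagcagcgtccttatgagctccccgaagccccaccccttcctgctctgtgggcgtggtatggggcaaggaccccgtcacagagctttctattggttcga
Efnb2: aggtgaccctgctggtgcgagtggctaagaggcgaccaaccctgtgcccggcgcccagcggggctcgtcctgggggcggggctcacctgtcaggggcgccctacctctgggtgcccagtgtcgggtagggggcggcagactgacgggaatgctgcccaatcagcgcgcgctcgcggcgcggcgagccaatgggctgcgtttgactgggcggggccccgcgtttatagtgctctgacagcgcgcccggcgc
Dll4: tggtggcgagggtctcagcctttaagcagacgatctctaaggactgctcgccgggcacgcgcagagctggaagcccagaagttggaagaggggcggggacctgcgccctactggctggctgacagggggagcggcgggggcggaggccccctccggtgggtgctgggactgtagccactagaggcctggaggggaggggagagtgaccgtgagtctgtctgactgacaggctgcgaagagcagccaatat
The Efnb1 window held 2 matches, and those of Efnb2 and Dll4 held 0. The letters occur, on either strand, in 7094 of 32851 RefSeq promoters of this length (21.6%), so a match is a description of the sequence only.

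Genes of sinusoidal identity that the gate did not use were present in these cells. In the members of control 2, control 3 and HFHC 4, Stab1, a scavenger receptor of sinusoidal endothelium, stood at 322, 912 and 592 CPM, and Mrc1, the mannose receptor, at 483, 895 and 647 CPM. Cdh5, the endothelial cadherin, stood at 725, 779 and 625 CPM, and Flt4, a VEGF receptor shared with lymphatics, at 282, 274 and 277 CPM. Flt4 and Cdh5 differed little between libraries, while Stab1 was lowest in control 2. Lyve1, a sinusoidal hyaluronan receptor known to be lower toward the portal end, had 0, 36 and 22 UMIs, or 0, 298 and 122 CPM. Among the defining genes of other cells, Ptprc of leukocytes, Dcn of stellate cells and fibroblasts, and Epcam and Krt19 of cholangiocytes had 0 UMIs in the members of control 3 and HFHC 4, and Prox1 of lymphatics had 1 UMI in control 3.

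Summed lists of other cell types differed between the libraries. Hepatocyte genes summed to 2255, 398 and 260.1 CPM in the members of control 2, control 3 and HFHC 4, with 15, 13 and 12 of 20 genes detected. Macrophage genes summed to 40.3, 49.7 and 5.53 CPM, cholangiocyte genes to 121, 16.6 and 0 CPM and B cell genes to 725, 0 and 5.53 CPM. T and NK cell genes and neutrophil genes were at 0 in all 3. Stellate genes summed to 5315, 16.6 and 0 CPM, and 131 of the 132 UMIs in control 2 came from 1 cell, which held 23.4% of that library's member UMIs but 0 of its UMIs of Msr1, Efnb1, Mecom, Hmcn1, Hes1, Adam23, Acer2, Il6st, Bmpr2 and Plpp1. For the other genes that passed below, Cst3 among them, and for Ly6a, the part of this cell is not given, apart from Lgals1. Monocyte genes summed to 725, 33.2 and 393 CPM, of which Plac8 gave 71 UMIs in 24 cells of HFHC 4. Large-vessel genes, the portal vein and artery being the neighbours of these cells, summed to 1691, 298 and 631 CPM, with 4, 4 and 5 of 7 genes detected. In HFHC 4, Ednrb, the endothelin B receptor, stood at 172 CPM in members, 92.1 in unmarked and 51.0 in pericentral cells, and Lrg1 at 138, 79.8 and 30.6 CPM. In control 3 the 47 members with Ntn4 held 1 UMI of Ednrb and 1 of Lrg1. Bgn, the 1 gene of this list that could be tested against pericentral cells, was lower in members, with a log2 fold change of -0.08. In the libraries left out of the gene tests, 6 of 8 members of control 1 and 3 of 3 of HFHC 1 held at least 3 UMIs of stellate, cholangiocyte, macrophage or leukocyte genes. All 4 members of control 4 held lymphatic endothelial UMIs, 75 in all with 57 in 1 cell, from 5 of the 6 genes of that list, which summed to 7824 CPM there and to 0, 16.6 and 0 CPM in control 2, control 3 and HFHC 4. These 4 cells enter only the comparison of shares, where their part was not tested.

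Genes outside the rule differed with the number of periportal UMIs that a cell carried, which is given here without a test because the threshold of the rule falls between 0 and 1 UMI. In HFHC 4 there were 135 unmarked cells with 0 periportal UMIs, 55 members with 1, 29 with 2 and 30 with 3 or more. Along that order Msr1, a class A scavenger receptor that binds modified LDL, stood at 141, 158, 308 and 602 CPM, and Efnb1, the B-class ephrin outside the rule, at 135, 195, 287 and 341 CPM. Lgals1, the lectin galectin-1, stood at 921, 329, 226 and 160.4 CPM in the same order, against 597, 693, 158 and 277 CPM in control 3, where it was not lower in members with 1 UMI than in unmarked cells. In control 3, with 191, 51, 15 and 11 cells, Msr1 stood at 180.4, 313, 591 and 323 CPM, so the last class was below the one before it, and Efnb1 at 120.3, 190.3, 434 and 323 CPM. In control 2, with 17, 2, 3 and 5 cells, Msr1 stood at 183, 449, 538 and 270 CPM and Efnb1 at 61.1, 1346, 1435 and 473 CPM. Ltbp4 did not rise at every step, at 601, 719, 656 and 1003 CPM in HFHC 4 and 694, 870, 788 and 1061 CPM in control 3. Depth differed most at the threshold itself, with a median of 924 UMIs in unmarked cells and 1449 in members with 1 UMI in HFHC 4, and 963 and 1503 in control 3.

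Members also differed by the rule gene they carried, though a cell could carry more than 1 and so count in more than 1 class. In HFHC 4, Msr1 was at 586 CPM in the 35 members with Efnb2, 318 CPM in the 75 with Ntn4 and 316 CPM in those with Dll4. In control 3 the order was the same, with 600.5 CPM in 20 Efnb2 cells, 331 CPM in 47 Ntn4 cells and 322 CPM in 26 Dll4 cells. The 13 Ly6c1 cells of HFHC 4 were lower than the Ntn4 cells in some genes, of which 3 are given here, from few UMIs. Efnb1 was at 89.8 against 294 CPM, Hes1 at 135 against 541 CPM and Adam23 at 179.6 against 731 CPM. The Ly6c1 cells held 2, 3 and 4 UMIs of these genes. For Efnb1 the exact Poisson interval in Ly6c1 cells, 10.9 to 324 CPM, covered the Ntn4 level. The intervals of Hes1 (27.8 to 394 CPM) and Adam23 (48.9 to 460 CPM) lay below the Ntn4 levels. Cst3, which encodes the protease inhibitor cystatin C, was instead at 3458 CPM in Ly6c1 cells and 1932 CPM in Ntn4 cells. The 3 Ly6c1 cells of control 3 were not lower in Efnb1 or Adam23. Efnb1 was at 438 against 319 CPM and Adam23 at 1313 against 564 CPM, from 2 and 6 UMIs in the Ly6c1 cells. Hes1 was lower there, at 219 against 613 CPM from 1 UMI, with an interval of 5.54 to 1219 CPM that covered the Ntn4 level. These are pooled cells of 1 library each and were not tested.

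Whether the diet went with a different share of periportal cells was asked over the 6 libraries with at least 10 gated cells. The share of members was 21.1%, 14.9%, 14.1% and 9.30% in controls 1 to 4 and 13% and 21.3% in HFHC 1 and HFHC 4. The ranges of the diets overlapped. The means were 14.8 ± 4.83% (SD, n = 4) and 17.2 ± 5.82% (SD, n = 2), a difference of 2.32 percentage points (two-sided exact permutation p = 0.733; the smallest p this design allows is 0.0667). Without HFHC 4 the difference turned to -1.79 points. With every cell thinned to 1000 UMIs, which left out 161 shallower gated cells of control 3 and 141 of HFHC 4, members made up 14% of control 3 and 22% of HFHC 4 but 3.22% of HFHC 1, and the difference between the diets was 0.240 points (two-sided exact permutation p = 1). Without cells that held 3 or more UMIs of other cell types, which left HFHC 4 as the only HFHC library, it was 4.25 points.

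The exclusion of channel genes weighed differently on the 2 large libraries. In HFHC 4, 243 gated cells had a periportal UMI, of which 114 (46.9%) were members, 95 (39.1%) were left out for a channel-gene UMI and 34 (14.0%) for a pericentral one. In control 3, 131 gated cells had a periportal UMI, of which 77 (58.8%) were members, 7 (5.34%) were left out for channel genes and 47 (35.9%) for pericentral genes. With the channel genes not excluded, the share was 26.6% in HFHC libraries and 15.4% in controls, a difference of 11.2 points (two-sided exact permutation p = 0.133, smallest possible 0.0667).

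Compared with pericentral cells of the same libraries, periportal cells held more RNA of the scavenger receptor Msr1, the ephrin Efnb1, the matrix proteins Ltbp4 and Hmcn1, the Notch target Hes1 and the BMP receptor Bmpr2, and less of galectin-1 (Lgals1), leukotriene C4 synthase (Ltc4s) and the phospholipid phosphatase Plpp1. Among these genes, Bmpr2 and Ltc4s lost their calls most often under other settings, as given below. Pericentral cells passed the same gate, carried Wnt2, Wnt9b, Kit or Rspo3 and had 0 UMIs of the periportal and channel genes (28, 217 and 61 cells in control 2, control 3 and HFHC 4, with median depths of 1932, 1630 and 1508 UMIs). Of 1783 genes tested outside the rule, 18 rose in periportal cells (1.01%) and 5 fell (0.28%), 23 or 1.29% in all, at an adjusted p under 0.05 by edgeR's quasi-likelihood test with the library as a block. Of the same 1783 genes, called or not, 14.1% were higher and 18.8% lower on the periportal side in each of the 3 libraries. Of 9 tested genes on a list of 18 other periportal genes, 9 were higher and 6 rose, with a median log2 fold change of 1.22 beside 0.02 for all genes tested. Of 9 tested genes on a list of 16 pericentral genes, 8 were lower and 1 fell, with a median of -0.43. Both lists were drawn up with earlier results of these data known. The filter on low counts also let a gene enter through its higher side alone, as Msr1, Efnb1, Mecom and Hmcn1 did, for example. The calls of such genes carry this limit too. How many listed genes were higher or lower is therefore partly set by that filter.

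Msr1 (chromosome 8, 39581685 to 39642673, minus strand, mm10) had the smallest adjusted p of the rises. In control 2, control 3 and HFHC 4 it stood at 362, 373 and 321 CPM in periportal cells and 12, 77.9 and 51.0 CPM in pericentral cells, from 9, 45 and 58 UMIs against 1, 28 and 5. Every library was higher on the periportal side and the 2 sides did not overlap. The log2 fold change was 2.61 ± 0.34 (SE; adjusted p 1.59e-05, edgeR), and Msr1 passed under all 15 alternatives that tested it, with adjusted p up to 0.0201. The alternatives counted here and below include 1 fit under 2 names, without control 2 and with at least 20 cells. Efnb1 (chromosome X, 99136130 to 99148991, plus strand), whose product binds EphB receptors on neighbouring cells, stood at 846, 265 and 260.1 CPM in periportal cells and 59.9, 94.6 and 51.0 CPM in pericentral cells. Again the sides did not overlap, with the highest periportal level in control 2. Its log2 fold change was 2.23 ± 0.34 (SE; adjusted p 0.00027, edgeR), and it passed under 15 of 16 alternatives, missing the threshold with no library block (adjusted p 0.123). Mecom (chromosome 3, 29951296 to 30548008, minus strand), a zinc-finger transcription factor of arterial endothelium, was rarer: 5, 13 and 22 UMIs in periportal cells, or 201, 108 and 122 CPM, against 1, 5 and 1 UMIs in pericentral cells. Its log2 fold change was 3.25 ± 0.65 (SE; adjusted p 0.00553, edgeR).

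Ltbp4 and Hmcn1 are matrix proteins outside the basement membrane and collagen list, of whose 5 tested genes 0 passed, 2 were higher and 3 lower (median -0.09). Ltbp4 (chromosome 7, 27305136 to 27337692, minus strand), which holds latent TGF-beta in the matrix, stood at 886, 887 and 780.2 CPM in periportal cells and 336, 381 and 387 CPM in pericentral cells. Every periportal level was above every pericentral level, and the log2 fold change was 1.22 ± 0.21 (SE; adjusted p 0.00125, edgeR); without control 3 the call was lost. Hmcn1, the matrix protein hemicentin-1, had 10, 12 and 19 UMIs in periportal cells and 0, 10 and 2 in pericentral cells, or 403, 99.5 and 105 against 0, 27.8 and 20.4 CPM, which gave a log2 fold change of 2.73 ± 0.62 (SE; adjusted p 0.0149, edgeR). Adam23, a surface protein of the ADAM family without protease activity, stood at 362, 580.4 and 664 CPM in periportal cells and 179.8, 323 and 387 CPM in pericentral cells. The 3 periportal values overlapped the pericentral range, since control 2 members were below HFHC 4 pericentral cells, but each library was higher on its own periportal side; the log2 fold change was 0.88 ± 0.23 (SE; adjusted p 0.0451, edgeR), and the call was lost without control 3 or without HFHC 4. Adam23 passed under 8 of 16 alternatives.

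Hes1 (chromosome 16, 30064384 to 30067796, plus strand), a transcriptional repressor that Notch switches on, stood at 966, 539 and 487 CPM in periportal cells and 179.8, 300.3 and 234 CPM in pericentral cells. The sides did not overlap, and the log2 fold change was 1.26 ± 0.26 (SE; adjusted p 0.00819, edgeR). Hes1 passed under 12 of 16 alternatives. Its call was lost with DESeq2, no library block, at least 5 cells per library and cells with at least 1000 UMIs. It was the only one of 6 tested genes of a 30-gene Notch list to pass, and the list's median was 0.22. Notch1 stood at 523, 133 and 149 CPM and Notch4 at 40.3, 91.2 and 49.8 CPM in periportal cells, and Hey1, another Notch target, had 0, 1 and 1 UMI. Of 17 ephrins and Eph receptors 3 could be tested: Efnb1 rose, while Efna1 had a log2 fold change of 0.53 and the receptor Ephb4 -0.12, neither past the threshold. Outside the rule, no gene of the netrin list had enough UMIs for a test.

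Bmpr2, the type II receptor for BMPs, was the only one of 12 tested genes of an 18-gene BMP and TGF-beta list to rise. It stood at 443, 340.0 and 315 CPM in periportal cells and 119.9, 172 and 183 CPM in pericentral cells, and its log2 fold change was 1.09 ± 0.27 (SE; adjusted p 0.035, edgeR). The list's median was 0.32, with 8 genes higher and 4 lower. Il6st, the gp130 subunit shared by interleukin-6 family receptors, stood at 1489.8, 1069.6 and 1134 CPM in periportal cells and 491, 665 and 816 CPM in pericentral cells, with a log2 fold change of 0.83 ± 0.19 (SE; adjusted p 0.0146, edgeR). It was the only one of 17 tested sinusoidal identity genes to rise, on a list whose median was -0.19. Bmpr2 and Il6st both lost their calls without control 3 or without HFHC 4, with log2 fold changes of 0.98 to 1.23. Bmpr2 passed under 7 of 16 alternatives and Il6st under 8 of 16.

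Of 5 tested fatty acid uptake genes 3 were higher, 2 were lower and 1 rose (median 0.42). Fabp5, a cytosolic fatty acid carrier, stood at 443, 788 and 1709.7 CPM in periportal cells and 192, 556 and 968 CPM in pericentral cells and rose by 0.76 ± 0.19 (SE; adjusted p 0.033, edgeR) on the log2 scale; this call was lost without control 3 or without HFHC 4. Fabp5 passed under 8 of 16 alternatives. Cd36, the fatty acid and lipoprotein receptor, had a log2 fold change of 0.99 and did not pass (edgeR adjusted p 0.151). Fabp4, a related carrier that is also on the pericentral list, stood at 2295, 912 and 4199.6 CPM in periportal cells and 1869.8, 1888 and 5647 CPM in pericentral cells; its log2 fold change of -0.43 ± 0.18 (SE; adjusted p 0.428, edgeR) did not pass, and it passed in the fit without control 2. Apoe, the apolipoprotein of remnant particles and a product mainly of hepatocytes and macrophages, rose by 0.47 ± 0.10 (SE; adjusted p 0.0123, edgeR) on the log2 scale; its call was lost without HFHC 4 and also without the cells that carried 3 or more UMIs of other cell types, a fit that took at least 5 cells per library. Apoe passed under 9 of 16 alternatives. Among 7 tested scavenger receptors outside the gate, Msr1 was the only one to pass and the median was 0.02. Acer2, a ceramidase that frees sphingosine from ceramide, stood at 483, 265 and 354 CPM in periportal cells and 108, 156 and 153 CPM in pericentral cells, with a log2 fold change of 1.19 ± 0.28 (SE; adjusted p 0.025, edgeR). Its call was lost without control 3 or without HFHC 4, and it passed under 8 of 16 alternatives.

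The remaining rises were scattered over functions. Glul, the glutamine synthetase that marks pericentral hepatocytes, was in these endothelial cells higher on the periportal side: it stood at 725, 216 and 299 CPM in periportal cells and 168, 122 and 102 CPM in pericentral cells, with a log2 fold change of 1.39 ± 0.30 (SE; adjusted p 0.0103, edgeR) and no call without HFHC 4. Glul passed under 9 of 16 alternatives. Cst3 stood at 3664, 1227 and 1621 CPM in periportal cells and 827, 748 and 866 CPM in pericentral cells. Control 2 held the highest level, and the log2 fold change was 1.20 ± 0.22 (SE; adjusted p 0.0121, edgeR). Oaz2, an antizyme that limits polyamine synthesis, stood at 403, 489 and 409 CPM in periportal cells and 71.9, 261 and 173 CPM in pericentral cells, with a log2 fold change of 1.21 ± 0.26 (SE; adjusted p 0.0121, edgeR), lost without HFHC 4. Calm2, Rps27 and the nuclear RNA Malat1 also passed, with log2 fold changes of 0.46, 0.40 and 0.36 (edgeR adjusted p 0.0451, 0.0246 and 0.00553); they fall outside the naming rule and are named because they complete the 18 rises. Each of the 3 lost its call without HFHC 4. Of 16 alternatives, Rps27 lost its call under 13, Calm2 under 10 and Malat1 under 7.

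**Figure D2:**
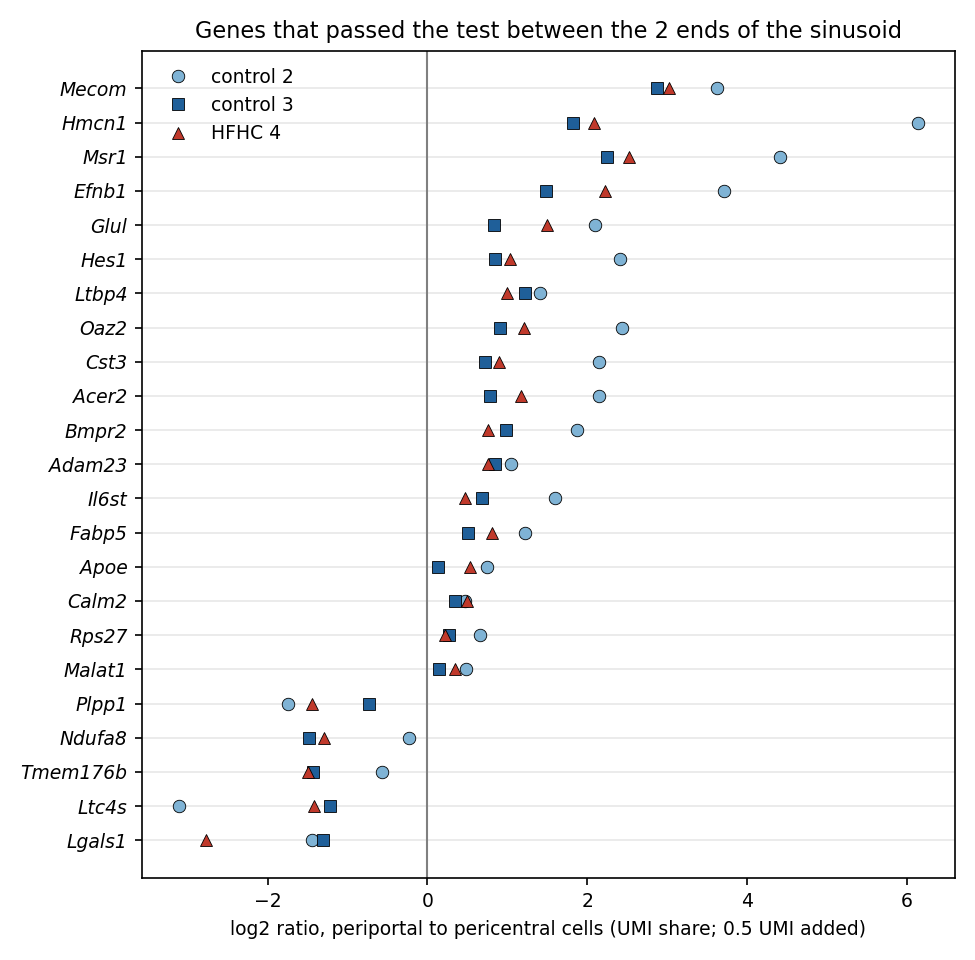
Log2 ratio of the periportal to the pericentral CPM in each of control 2, control 3 and HFHC 4 for the 23 genes that passed, computed with 0.5 UMI added to both sides; each point is 1 library and 0 marks equal levels. Genes are ordered by fitted log2 fold change, from Mecom at 3.25 to Lgals1 at -1.89; for each of the 23 genes all 3 points fall on the same side of 0, and control 2 has the largest ratio for most of the rises. The genes were chosen by a test of the difference within libraries, so their agreement in side is partly set by that choice.

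Lgals1 (chromosome 15, 78926725 to 78930465, plus strand) fell most. It stood at 443, 506 and 255 CPM in periportal cells and 1259, 1265 and 1753 CPM in pericentral cells, from 11, 61 and 46 UMIs against 105, 455 and 172. The sides did not overlap, the lowest periportal level was that of HFHC 4, and 8 of the 11 UMIs in control 2 came from the 1 cell with stellate genes. The log2 fold change was -1.89 ± 0.22 (SE; adjusted p 1.52e-05, edgeR), and Lgals1 passed under 15 of 16 alternatives, missing the threshold with at least 5 cells per library (adjusted p 0.58), which adds control 1. Plpp1 (chromosome 13, 112800792 to 112867894, plus strand), which removes phosphate from lysophosphatidic acid and related lipids outside the cell, stood at 282, 1202 and 309.9 CPM in periportal cells and 1007, 1999.5 and 846 CPM in pericentral cells. Control 3 was higher than the other libraries on both sides, so the sides overlapped across libraries while each library fell; the log2 fold change was -1.06 ± 0.19 (SE; adjusted p 0.00137, edgeR), lost without HFHC 4. Plpp1 was the 1 gene of the pericentral list that fell.

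The other falls were smaller in count. Ltc4s, the enzyme that makes leukotriene C4, had 0, 17 and 15 UMIs in periportal cells and 14, 121 and 22 in pericentral cells, a log2 fold change of -1.39 ± 0.33 (SE; adjusted p 0.0235, edgeR). Tmem176b, a membrane protein, stood at 121, 116 and 205 CPM in periportal cells and 204, 323 and 581 CPM in pericentral cells, with a log2 fold change of -1.38 ± 0.27 (SE; adjusted p 0.00553, edgeR). Ndufa8, a subunit of respiratory complex I, stood at 322, 174 and 232 CPM in periportal cells and 396, 498 and 571 CPM in pericentral cells, with a log2 fold change of -1.19 ± 0.26 (SE; adjusted p 0.013, edgeR). All 3 lost their calls without control 3 or without HFHC 4. Of 16 alternatives, Ltc4s passed under 8, Tmem176b under 11 and Ndufa8 under 10. Other pericentral genes were lower without passing, Cdh13, an anchored cadherin, at a log2 fold change of -1.36 (edgeR adjusted p 0.165) and Slco2a1, a prostaglandin transporter, at -1.11 (adjusted p 0.27).

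In other lists no gene passed, and a list without calls is not shown to be equal at the 2 ends. This held for 15 tested pan-endothelial genes (median log2 fold change -0.02), 5 arterial genes (5 higher, median 0.16), 11 MHC genes (10 higher, median 0.11), 5 interferon response genes (5 higher, median 0.19), 4 midzonal genes (4 lower, median -0.31) and 9 glycolysis genes (8 lower, median -0.36). Ly6a, a Ly6 family protein named here after its values were seen, stood at 7046, 2927 and 2849.5 CPM in periportal cells and 443, 895 and 948 CPM in pericentral cells. Each library was far higher on the periportal side, but control 2 was apart from the others, and the log2 fold change of 2.25 ± 0.64 (SE; adjusted p 0.566, edgeR) did not pass. Without control 2 it was 1.67 and Ly6a passed, but that fit had 2 libraries and 1 residual degree of freedom. So few libraries hardly measure the spread between mice. In that fit of control 3 and HFHC 4, 51 genes passed, 25 higher and 26 lower, and 22 of them were among the 23. Without the cells that carried 3 or more UMIs of other cell types and with at least 5 in place of 10 cells per library, since control 2 kept 9 members, 44 passed, with 19 shared. DESeq2 called 9, with 8 shared, and edgeR with no library block called 4, with 3 shared.

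Levels in the other gated sets placed the periportal cells at 1 end of a range for some genes and not for others. The sets were periportal cells, cells with both periportal and pericentral genes, unmarked cells, pericentral cells and channel-gene cells, which numbered 77, 47, 191, 217 and 16 in control 3 and 114, 34, 135, 61 and 192 in HFHC 4. In that order Msr1 stood at 373, 147, 180.4, 77.9 and 314 CPM in control 3 and 321, 145, 141, 51.0 and 127 CPM in HFHC 4. Efnb1 stood at 265, 107, 120.3, 94.6 and 0 CPM in control 3 and 260.1, 129, 135, 51.0 and 63.4 CPM in HFHC 4. Both were highest in periportal cells, though Msr1 in the 16 channel-gene cells of control 3 came near that level. Mecom stood at 108, 13.4, 55.5, 13.9 and 0 CPM in control 3 and 122, 64.6, 92.1, 10.2 and 28.2 CPM in HFHC 4, with unmarked cells between the 2 ends in both libraries. Lgals1 ran the other way, with its highest level in pericentral cells, at 506, 975, 597, 1265 and 589 CPM in control 3 and 255, 1275, 921, 1753 and 573 CPM in HFHC 4. Adam23 stood at 580.4, 468, 458, 323 and 393 CPM in control 3 and 664, 662, 516, 387 and 338 CPM in HFHC 4, and in HFHC 4 the cells with both kinds of gene matched the periportal level. These 5-set levels are a description.

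**Figure D3:**
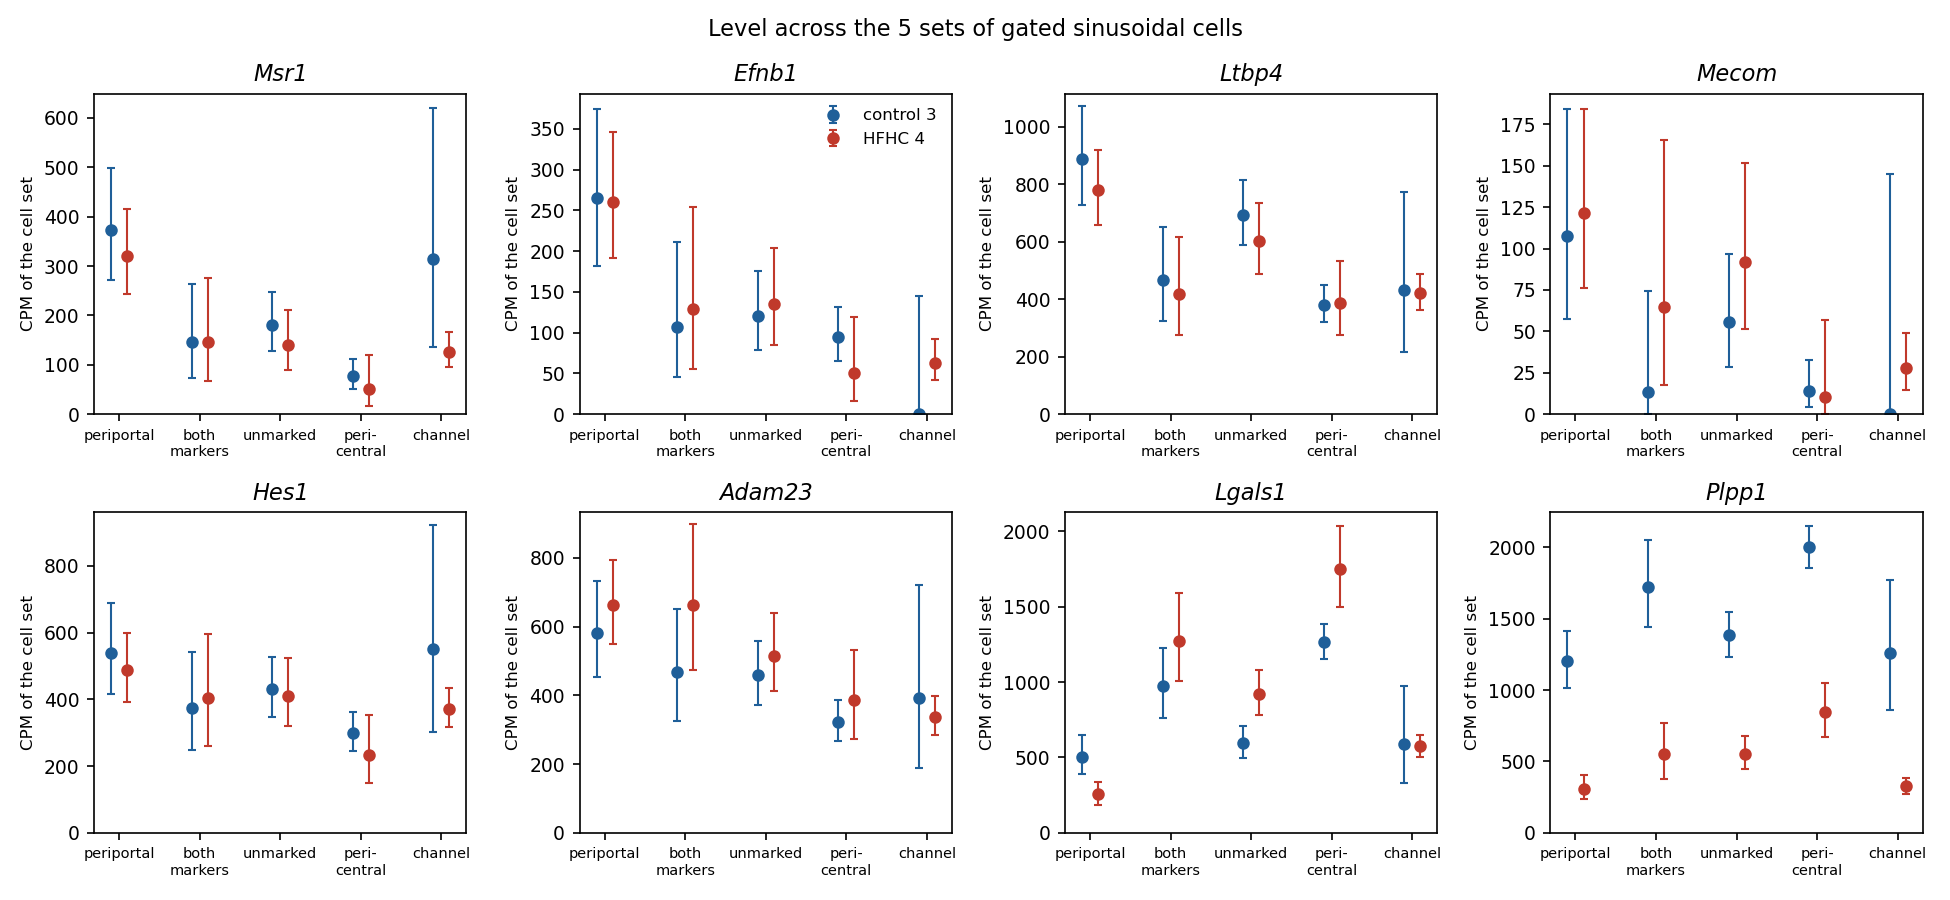
CPM of Msr1, Efnb1, Ltbp4, Mecom, Hes1, Adam23, Lgals1 and Plpp1 in 5 sets of gated sinusoidal cells of control 3 and HFHC 4, with exact 95% Poisson intervals for counting error only. Msr1, Efnb1 and Ltbp4 are highest in periportal cells in both libraries, and Lgals1 and Plpp1 are highest in pericentral cells in both.

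Against unmarked sinusoidal cells, which passed the gate with 0 UMIs of all 12 zone and channel genes, no gene passed. Of 2299 genes tested, 0 were called (0.0%) by edgeR's quasi-likelihood test, 118 had an unadjusted p under 0.05, and DESeq2 called 0 with 25 under that unadjusted threshold. Unmarked cells were shallower in control 3 and HFHC 4, with medians of 963 and 924 UMIs beside 1558 and 1596 in periportal cells. Efnb1 stood at 846, 265 and 260.1 CPM in periportal cells and 61.1, 120.3 and 135 CPM in unmarked cells. Each library was higher on the periportal side, with a log2 fold change of 1.37 ± 0.33 (SE; adjusted p 0.541, edgeR). Of all 2299 genes, 17.7% were higher and 12.5% lower in each of the 3 libraries. Lgals1 stood at 443, 506 and 255 CPM in periportal cells and 897, 597 and 921 CPM in unmarked cells, with a log2 fold change of -1.13 ± 0.29 (SE; adjusted p 0.541, edgeR). Actb, the cytoskeletal actin, stood at 2295, 5083 and 5754 CPM in periportal cells and 5624, 7161 and 8727 CPM in unmarked cells, with a log2 fold change of -0.89 ± 0.20 (SE; adjusted p 0.541, edgeR). The other genes among the 5 with the smallest p, Alb and Apoc1, are hepatocyte products, and Alb had 9, 6 and 2 UMIs in periportal and 43, 28 and 5 in unmarked cells.

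The lists were described against unmarked cells in the same way, with the same limit from the filter on low counts. Of 10 tested periportal genes 9 were higher and 1 lower (median 0.68, beside -0.03 for all genes), of 8 pericentral genes 5 were lower (median -0.19), and of 5 arterial genes 5 were higher (median 0.50). Glycolysis genes were lower in 8 of 9 (median -0.44) and hepatocyte genes in 4 of 4 (median -1.22), and 3 of 3 large-vessel genes were higher (median 0.48); the part of these cells' RNA in the comparison was not tested. Msr1 had a log2 fold change of 1.01 ± 0.27 (SE; adjusted p 0.602, edgeR), Ltbp4 0.61, Hes1 0.57 and Il6st 0.79. Both gene comparisons share the periportal cells, so they are not independent. Without control 2, in a fit of 2 libraries with 1 residual degree of freedom, 19 genes passed, 9 higher and 10 lower. Ly6a at a log2 fold change of 1.23 and Msr1 at 1.09 were among those higher, and Lgals1 at -1.06 among those lower. Unmarked cells of control 2 held 702 UMIs of stellate, cholangiocyte, macrophage and leukocyte markers, beside 136 in its periportal cells. Without cells that carried 3 or more of them, and with at least 5 cells per library, 4 genes passed: Efnb1 (log2 fold change 1.29, edgeR adjusted p 0.00274), Plac8 (1.93, 1.15e-04), Tm4sf1 (0.75, 3.68e-04) and Lgals1 (-1.24, 1.67e-04).

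Between the diets only 1 HFHC library, HFHC 4, held enough periportal cells, so the gene test set 1 library against controls 2 and 3 and took its spread from those 2 controls. Of 2653 genes, 0 passed (0.0%) by edgeR's quasi-likelihood test, 36 had an unadjusted p under 0.05, and DESeq2 called 0 with 4 under that unadjusted threshold. HFHC 4 lay outside the range of the controls for 55.1% of genes, so a value outside that range is common here. Without cells that carried 3 or more UMIs of other cell types, and with at least 5 cells per library, 2 genes passed. What follows describes these libraries and not the diet.

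On the high side were genes with few UMIs in the controls. In the members of control 2, control 3 and HFHC 4, 8430408G22Rik had 1, 0 and 33 UMIs, with a log2 fold change of 4.52 ± 1.16 (SE; adjusted p 1, edgeR), and stood in the unmarked, pericentral and channel-gene cells of HFHC 4 at 258, 214 and 303 CPM. Stmn1, which destabilises microtubules and is high in dividing cells, had 1, 4 and 31 UMIs.

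Genes on the low side included a transporter and a growth factor. Slco2a1 had 4, 16 and 2 UMIs, or 161, 133 and 11.1 CPM, with a log2 fold change of -3.47 (SE 0.98). Hbegf, an EGF receptor ligand, had 5, 14 and 2 UMIs, or 201, 116 and 11.1 CPM, with a log2 fold change of -3.48 (SE 1.01). Cyp26b1, which breaks down retinoic acid, stood at 201, 622 and 88.5 CPM, so control 3 was above both other libraries. Klf2, a transcription factor that shear stress induces, stood at 1248, 423 and 359.7 CPM, with control 2 apart from the other two. None of these passed the test. Of 6 tested flow-responsive genes 6 were lower in HFHC 4, with a median log2 fold change of -0.99, and of 10 pericentral genes 8 were lower, with a median of -1.20, beside -0.01 for all genes.

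Genes of lipid handling were mostly higher in HFHC 4 members. Fabp5 stood at 443, 788 and 1709.7 CPM, Fabp4, its close relative, at 2295, 912 and 4199.6 CPM and Cd36 at 846, 821 and 1367 CPM. HFHC 4 was above both controls for each of the 3, and none passed the test (log2 fold changes 1.49, 1.44 and 0.76). This was not particular to the members. Unmarked cells of the same libraries had Fabp5 at 265, 546 and 1320 CPM and Fabp4 at 428, 773 and 4315 CPM. Their Cd36 stood at 245, 634 and 1135 CPM. Pericentral cells too were highest in HFHC 4 for each of the 3 genes. In members, of 5 tested fatty acid uptake genes 4 were higher (median 0.76), and of 6 cholesterol handling genes 5 were higher (median 0.94). The periportal list itself showed no such lean, with 4 of 15 genes higher and a median of -0.14. Efnb1 stood at 846, 265 and 260.1 CPM and Hes1 at 966, 539 and 487 CPM, where control 3 and HFHC 4 were close and control 2 was higher.

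**Figure D4:**
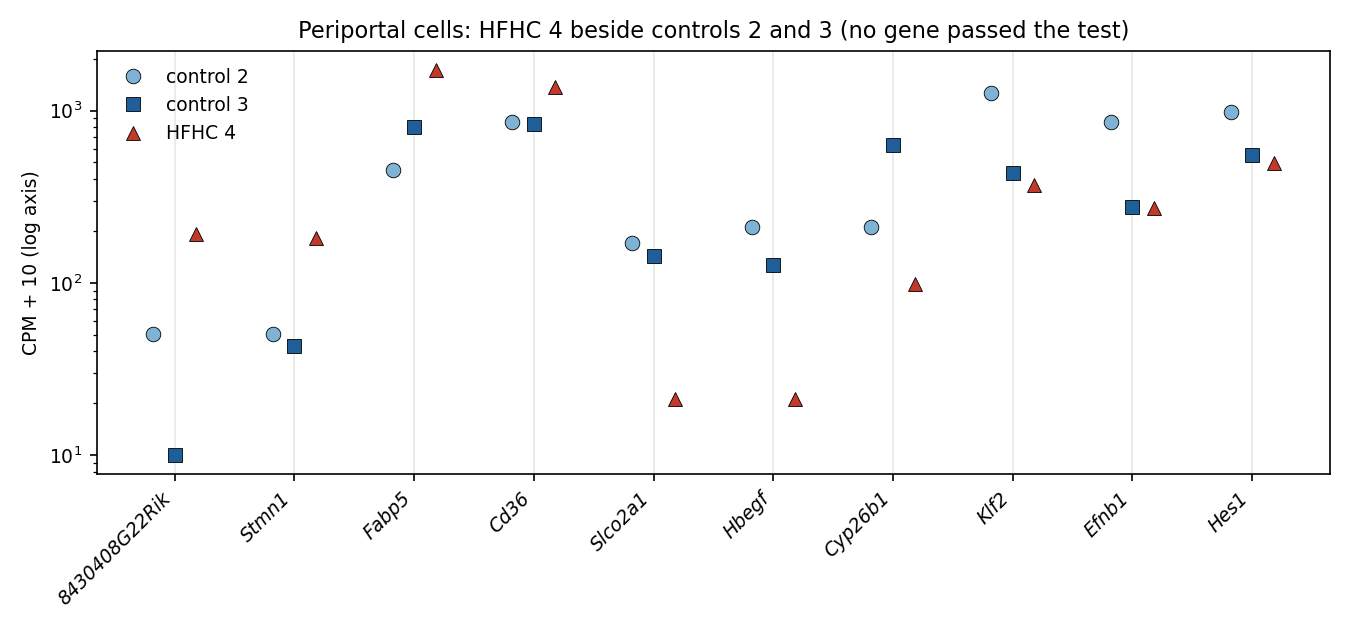
CPM plus 10, on a log axis, of 10 genes in the periportal cells of control 2, control 3 and HFHC 4; each point is the summed value of 1 library. 8430408G22Rik and Stmn1 are highest and Slco2a1 and Hbegf lowest in HFHC 4, while Efnb1 and Hes1 differ more between the 2 controls than between control 3 and HFHC 4.

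The difference between periportal and pericentral cells was itself compared between HFHC 4 and the 2 controls as an interaction, with 1 library in the HFHC arm. Of 1783 genes 1 passed in edgeR, Plac8, a gene of the monocyte list, and 32 had an unadjusted p under 0.05. Plac8 was higher on the periportal side in control 3 and HFHC 4 and lower in control 2, where 5 pericentral cells held 195 UMIs, so the call rests on control 2 and shows no difference of HFHC 4 from both controls. For the difference between periportal and unmarked cells 0 of 2299 genes passed in edgeR, with 10 under an unadjusted 0.05. Msr1, Efnb1, Ltbp4 and Lgals1 did not pass, which does not show that their contrast was equal in the 3 libraries.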

How the data were processed

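The authors deposited raw UMI counts per gene and cell barcode, in 1 matrix of all 8 libraries, with each barcode's library in its name; per the submitters' processing notes, Cell Ranger 3.0.1, Seurat and mm10 were used, and the sources used here name no cell filter. The periportal cells and all gene lists were chosen with earlier results of these data known. Each of 3416 deposited barcodes was kept in the library with most UMIs, leaving 3192, and 31053 genes were read. Counts of member cells were summed per library. No further filter on depth was applied, and doublets were called with Scrublet (scanpy 1.11.5), which marked 66 barcodes, 8 of them members; they were kept in the analysis and left out in an alternative.

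Sums of libraries with at least 10 cells of each set entered edgeR 4.0.16 in R 4.3.3 (quasi-likelihood test with robust fit, TMM scaling and its filterByExpr), with the library as a block between cell sets, and with DESeq2 1.42.0 as an alternative. P-values were adjusted by Benjamini-Hochberg over all tested genes outside the 19 rule genes, at 0.05. filterByExpr was given the sides of each comparison, so a gene could enter through its higher side alone. SE is the absolute log2 fold change divided by the square root of F. Shares per library entered an exact permutation test, two-sided (scipy 1.17.1). Intervals cover counting error only.

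Named genes were the 10 largest rises and falls past the threshold with at least 20 CPM and 1 direction in every library, leaving out mitochondrial, ribosomal, sex-linked and other-cell genes, or the 5 smallest p where fewer than 5 passed, plus up to 4 per list; 1 gene of the diet comparison is not reported here. Gene positions are from GENCODE on mm10 and promoters from RefSeq, which matched 23 of 30 genes looked up. In simulated data for the pericentral comparison (1795 genes), 32 of 50 changes of 2-fold and 50 of 50 of 4-fold were recovered. For the diet comparison (2663 genes), 2 and 10 of 50 were. Apart from these changes the simulated libraries differed only in depth, with the spread fitted for genes of like level. Recovery under the real differences between libraries was not measured.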

Additional observations from a re-analysis of the deposited data

Results flagged for a closer look

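Plac8, a gene high in monocytes and some endothelium, passed the test of the interaction between cell set (periportal or pericentral) and library group (HFHC 4 or controls 2 and 3), at 3.89 on the log2 scale (edgeR adjusted p 0.00431). It had 17 UMIs in periportal and 195 in pericentral cells of control 2 (684 and 2337 CPM), 4 and 2 in control 3 (33.2 and 5.56 CPM), and 71 and 6 in HFHC 4 (393 and 61.2 CPM). Control 3 and HFHC 4 were thus both higher on the periportal side, and control 2 alone was lower. Its 195 UMIs came from 5 of 28 pericentral cells, so the value rests on that library and does not set HFHC 4 apart from both controls.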

How the results depend on the processing

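For periportal against pericentral cells, where 23 genes passed, the count was 9 with DESeq2, 4 with no library block, 5 with at least 5 cells per library, 51 with at least 20, 35 with at least 2 marker UMIs, 55 with Ly6c1 left out, 36 with 3 of 6 gate genes, 37 without Scrublet doublets, 7 in cells with at least 1000 UMIs and 44 without cells carrying other cell types' genes together with at least 5 cells per library, an alternative chosen after seeing the data. It was 19 with DESeq2 size factors, 33 with no filter on low counts and 23 with all barcode copies. Leaving out 1 library gave 18 to 51. Against unmarked cells, where 0 passed, the count was 46 with no filter, 19 with at least 20 cells, 22 with at least 2 marker UMIs, 17 with Ly6c1 left out, 2 with 3 gate genes and 4 without the cells of other types; leaving out 1 library gave 0 to 19. Between the diets, where 0 passed, it was 1 with channel genes not excluded (8430408G22Rik), 1 at 1000 UMIs and 2 without the cells of other types. With at least 20 cells, at least 2 marker UMIs, Ly6c1 left out or 3 gate genes, control 2 also dropped out of both cell-set comparisons. Those settings left 2 libraries, control 3 and HFHC 4, and 1 residual degree of freedom. The setting with at least 20 cells is the same fit as leaving out control 2. The cause of these changes was not tested.

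The difference in share, 2.32 points, turned to -1.79 without HFHC 4, and leaving out 1 library gave -1.79 to 6.44. It was 11.2 with channel genes not excluded, 9.59 in libraries that share few barcodes (added after seeing the data), 5.39 with 3 gate genes, 4.25 without cells of other types, 0.370 with at least 2 marker UMIs and 0.240 thinned. The replicate numbers name different animals and do not pair them, and HFHC 4 is numbered by its description while its title says animal 14; with the number as a block the difference was 1.98 (exact permutation p = 1 over 2 shared numbers). For the diet's genes, No paired analysis was possible because control 2, control 3 and HFHC 4 share no replicate number; at least 20 cells, at least 2 marker UMIs, Ly6c1 left out, 3 gate genes and leaving out 1 library left no residual degree of freedom and were not run. A median of 1639 UMIs per member limits what a 0 in 1 cell means, and the diet comparison rests on 1 HFHC animal.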
